A study of Homo sapiens with 4 samples.

Results

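The genes that store, import, export and sense iron were read in RNA-seq of HT-29, a line from a human colorectal cancer, and of NCM460, used in the study as a normal colon line. The set holds 8 genes of the 64936 named rows of the table, of which 18650 loci had at least 1 fragment, a sequenced read pair. A locus is a gene, or adjacent genes that were given identical values. They were chosen by symbol: FTH1, FTL, TFRC, SLC40A1, SLC11A2, ACO1, IREB2 and NCOA4. The choice was made with earlier results of these data known, and FTH1 and FTL were picked because they are among the most abundant messengers, so their levels and their differences with SCS are given as descriptions, with no test. Each line was cultured without SCS (control) and with SCS, a chondroitin sulfate prepared from hybrid sturgeon, at 100 μg/mL for 24 h. The paper describes more fetal bovine serum in the medium of NCM460 than in that of HT-29. Line and serum therefore cannot be told apart in any comparison between the lines. Each of the 4 conditions was sequenced as 1 library. No difference between conditions therefore has a replicate check, and every 95% interval covers counting error only.

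Ferritin is a hollow shell of heavy (FTH1) and light (FTL) chains in which cells store iron, and in which the heavy chain oxidises it. Transferrin receptor 1 (TFRC) takes up transferrin-bound iron, SLC11A2 (DMT1) carries the iron out of the endosome and, in the gut, in from the lumen, and ferroportin (SLC40A1) is the only known cellular exporter of iron. The iron regulatory proteins ACO1 (IRP1, a cytosolic aconitase when it holds an iron-sulfur cluster) and IREB2 (IRP2) bind stem-loops in messengers, called iron-responsive elements (IREs). Bound in the 5′ UTR of ferritin and ferroportin messengers they block translation, and bound in the 3′ UTR of TFRC they slow its decay. NCOA4 is the receptor that brings ferritin to the lysosome, where its iron is released.

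Matches to an IRE pattern are shown because they separate messengers whose translation the regulatory proteins act on from a messenger whose stability they act on. A search of GENCODE 29 protein-coding transcripts, on the sense strand, for an unpaired C, 5 bases, the loop CAGTGN and 5 bases that pair with the first 5 (the letters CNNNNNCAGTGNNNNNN, G-T pairs allowed) found 7 in the UTRs of 4 of the 8 genes. The sequences are 5′ to 3′ on the transcript, with the loop in capitals and GRCh38 coordinates.
FTH1, 5′ UTR, chr11:61967574-61967602, minus strand: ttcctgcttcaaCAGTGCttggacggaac
FTL, 5′ UTR, chr19:48965335-48965363, plus strand: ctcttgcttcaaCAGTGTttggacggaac
SLC40A1, 5′ UTR, chr2:189580661-189580689, minus strand: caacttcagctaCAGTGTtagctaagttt
TFRC, 3′ UTR, chr3:196050979-196051007, minus strand: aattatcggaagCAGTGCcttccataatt
TFRC, 3′ UTR, chr3:196050575-196050603, minus strand: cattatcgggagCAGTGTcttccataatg
TFRC, 3′ UTR, chr3:196050510-196050538, minus strand: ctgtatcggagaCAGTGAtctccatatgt
TFRC, 3′ UTR, chr3:196050463-196050491, minus strand: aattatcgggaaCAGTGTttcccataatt

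Of 19684 protein-coding genes, 36 (0.183%) held such a match in a 5′ UTR and 132 (0.671%) in a 3′ UTR. No match was found in the UTRs of SLC11A2, ACO1, IREB2 or NCOA4, which says only that this pattern is not in the transcripts searched. Elements of another form were not sought in any of the genes, so the matches are no full count of their IREs. A match is a description of the sequence, and binding was not measured here.

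The libraries differed in depth and in their mitochondrial share. They held 1156568 to 1654764 fragments, of which mitochondrial genes took 35.8% (control) and 13.8% (SCS) in HT-29, and 62.3% (control) and 46.3% (SCS) in NCM460. This left 507692 to 1383424 nuclear fragments. The 3 fragments used as a floor for a count of 0 correspond to 2.17 to 5.91 CPM of nuclear fragments. CPM of nuclear fragments are fragments scaled to a common total of nuclear fragments. Across loci, the log2 fold change with SCS went with transcript GC content weakly in HT-29 (Spearman's rho -0.13) and closely in NCM460 (rho -0.62), where GC-poor transcripts were higher in the SCS library. Each log2 fold change of a member with SCS in NCM460 is therefore also given after subtraction of the GC trend. Ratios between members, and some values between the lines, are given without that subtraction. EPCAM, CDH1 and keratins 8, 18 and 19 of the colon epithelium were present in every library, the 11 markers summing to 4630 to 12600 CPM of nuclear fragments. However, CDX1 was at 0 throughout, CDX2 was at 0 in HT-29, and KRT20, VIL1 and LGALS4 were at 0 in NCM460. CDH17 held 1 fragment in the HT-29 control and 0 in each other library. The 8 mesenchymal markers summed to 11.3 and 15.2 CPM in HT-29 and to 181 and 227 in NCM460. Most of the NCM460 sum was SPARC, with 65 and 102 fragments, and no other marker of that list exceeded 17 fragments there. VIM held 7 and 4 fragments in NCM460 and ZEB1 4 and 2, and CDH2, COL1A2 and COL3A1 were at 0 in all 4 libraries. Of the blood and liver markers, PTPRC, HBA1, HBB, ALB, HAMP and TF were at 0 in all 4 libraries, and CD68, a lysosomal protein of many cells, held 473 to 650 fragments.

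Both ferritin messengers were higher with SCS in HT-29 and showed no such difference in NCM460. FTH1 held 6481 fragments in the HT-29 control and 21320 with SCS, against 1014 and 1257 in NCM460. FTL held 4375 and 15243 fragments in HT-29, against 934 and 1083 in NCM460. In HT-29 the SCS library stood above the other 3 for both chains, on every scale used. A bulk library cannot tell fewer cells with a transcript from less of it per cell.

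**Figure D1:**
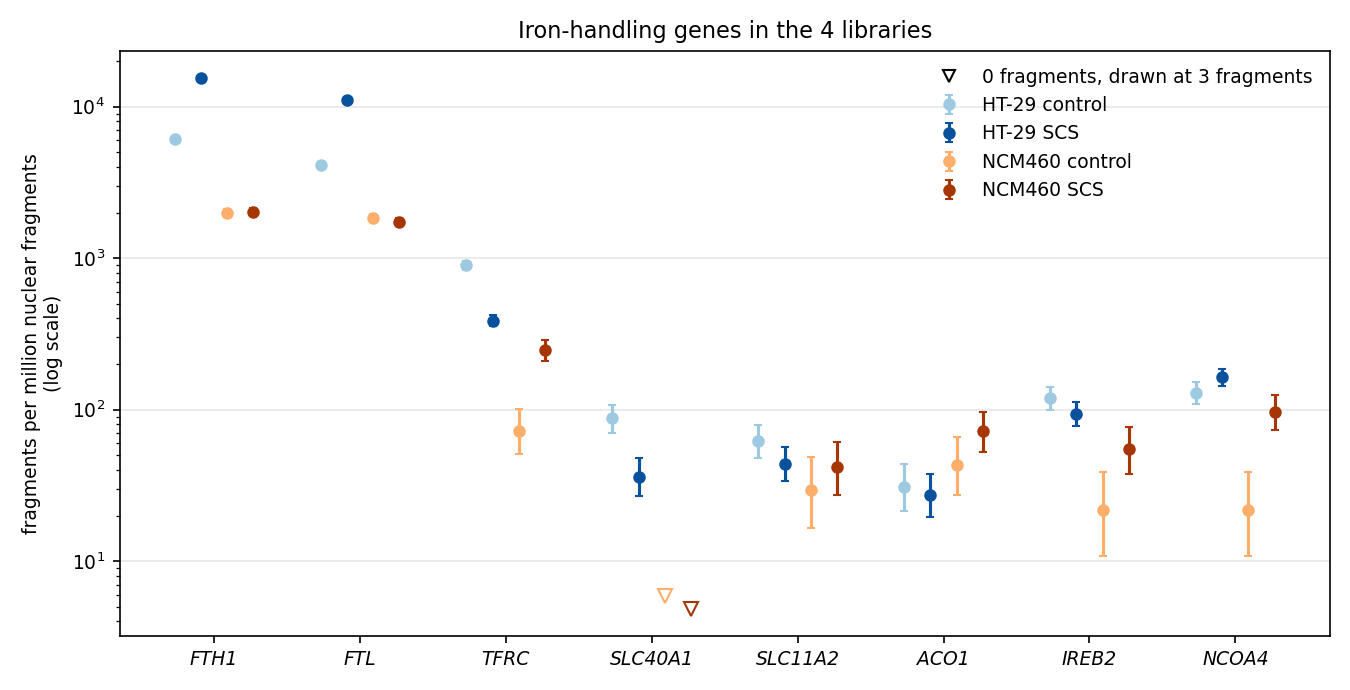
Level of each of the 8 genes in each library, as CPM of nuclear fragments on a log axis. Points are the 4 libraries, bars are exact 95% Clopper-Pearson intervals of the count, and open triangles mark SLC40A1 at 0 fragments in both NCM460 libraries, drawn at 3 fragments. FTH1 and FTL stand at 1742 to 15410 CPM, and no other gene of the set exceeds 897.6.

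On CPM of all fragments, with the libraries scaled by the TMM method so that most loci agree, FTH1 went from 3168 to 8872 CPM in HT-29, a log2 fold change of 1.49 (95% counting interval 1.45 to 1.53), or 2.8-fold. FTL went from 2138 to 6343 CPM, a log2 fold change of 1.57 (1.52 to 1.62), or 2.97-fold. The chains therefore moved almost together on this scale, and the ratio of FTH1 to FTL fragments went from 1.48 to 1.40, a fold of 0.944 (0.904 to 0.986). By the deposited FPKM they lay further apart, with HT-29 log2 fold changes of 1.17 for FTH1 and 1.53 for FTL. The FPKM ratio of FTH1 to FTL went from 1.04 to 0.81 there. In NCM460 the log2 fold changes were -0.16 (-0.28 to -0.04) for FTH1 and -0.26 (-0.39 to -0.13) for FTL. Both stayed within 1.5-fold, and after subtraction of the GC trend they were -0.12 and 0.26, so the sign of the FTL value depended on it. Scaled by total fragments, mitochondrial ones included, both were positive, at 0.53 and 0.43, so no direction is given for ferritin in NCM460. By the deposited FPKM, the FTH1 log2 fold change in NCM460 was -0.69, beyond 1.5-fold.

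Per transcript length, the light and heavy chains were among the most abundant nuclear messengers in each library. FTH1 stood at 2380 and 5330 FPKM (fragments scaled by transcript length and library size) in HT-29, without and with SCS, and at 1600 and 993 in NCM460. FTL stood at 2280 and 6580 FPKM in HT-29 and at 1510 and 1060 in NCM460. Among nuclear protein-coding loci FTL ranked 3 in the HT-29 control and 1 with SCS, and FTH1 ranked 2 in both, whereas in NCM460 both chains ranked between 21 and 30. Together the 2 chains took 1.02% (95% exact interval 1.00 to 1.04) of nuclear fragments in the HT-29 control and 2.64% (2.62 to 2.67) with SCS. In NCM460 they took 0.384% (0.367 to 0.401) and 0.376% (0.361 to 0.392), and these intervals overlap.

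Ferritin reads can be shared with processed pseudogenes, which are many. The 25 FTH1P rows of the table held 1, 3, 1 and 1 fragments in the 4 libraries, and the 16 FTLP rows held 0, 1, 0 and 0, so nearly all counted ferritin fragments were assigned to the parent genes. BEST1, a channel gene on the opposite strand that overlaps FTH1, held 2 fragments in the HT-29 control, 32 with SCS, and 2 in each NCM460 library. The library kit named in the labels is not stated to mark strand, so reads of the overlap cannot be told apart, but the 32 fragments are few beside the 21320 of FTH1.

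TFRC, the importer, was lower with SCS in HT-29 and higher in NCM460. It held 953 fragments in the HT-29 control and 536 with SCS, and 37 in the NCM460 control and 153 with SCS. The HT-29 control was the highest library and the NCM460 control the lowest, with both SCS libraries between them. The log2 fold change was -1.06 (-1.22 to -0.91) in HT-29, or 2.08-fold lower, and 1.55 (1.05 to 2.13) in NCM460, or 2.93-fold higher. The GC-poor TFRC transcript (41.5% GC) was still lower in HT-29 when the GC trend was subtracted, at -1.24 (-1.40 to -1.09). In NCM460 the subtraction left 0.58 (0.08 to 1.17), just under 1.5-fold, so this difference was no longer called.

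The ratio of ferritin to TFRC within a library uses no scaling between libraries. FTH1 fragments per TFRC fragment went from 6.80 to 39.8 in HT-29, a fold of 5.85 (5.24 to 6.54). In NCM460 they went from 27.4 to 8.22, a fold of 0.30 (0.202 to 0.437). FTL per TFRC moved likewise, 6.19-fold (5.54 to 6.94) in HT-29 and 0.281-fold (0.188 to 0.409) in NCM460. The control libraries thus differed in the opposite direction to the SCS libraries, with the higher ratio in NCM460 without SCS and in HT-29 with it. Differences of GC content between the genes are not removed by a ratio within a library. With the GC trend subtracted, the NCM460 log2 fold changes were -0.12 for FTH1, 0.26 for FTL and 0.58 for TFRC. The chains and TFRC then lay closer together, so the size of the NCM460 fall depended on the trend. The counting interval of TFRC (0.08 to 1.17) then overlapped that of FTL (0.13 to 0.38), but not that of FTH1 (-0.24 to 0.0). For FTL per TFRC, no fall in NCM460 is therefore read once the trend is subtracted.

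**Figure D2:**
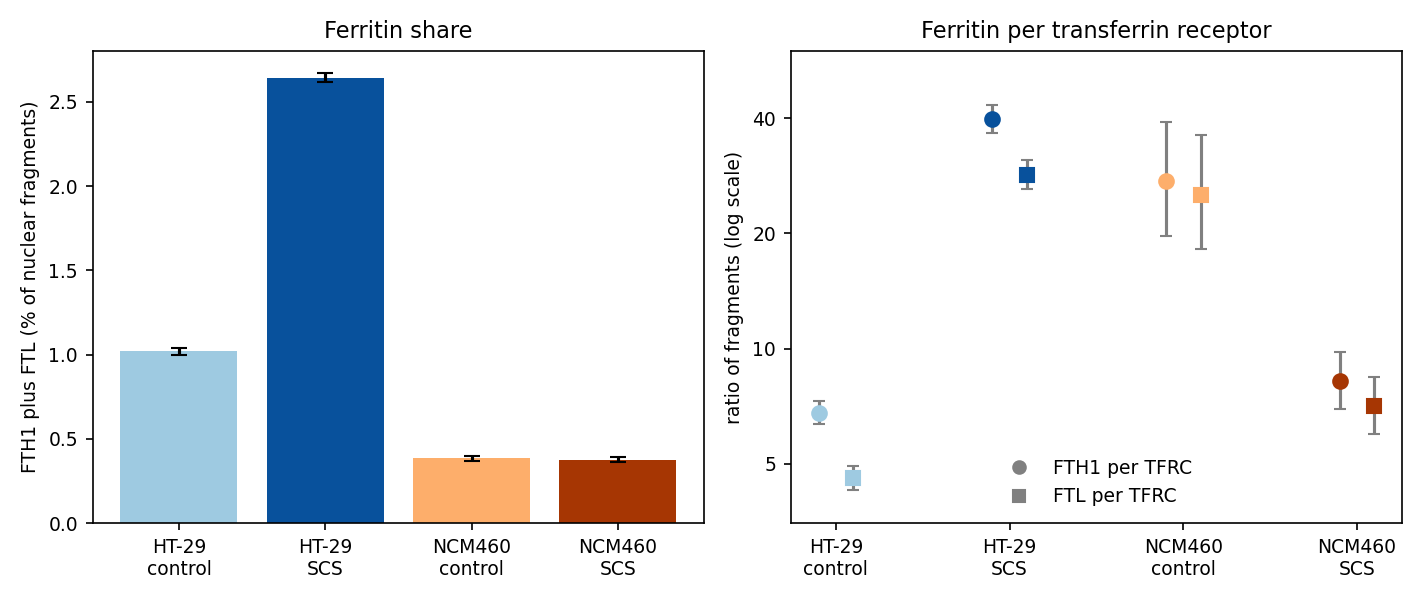
Left, FTH1 plus FTL as a percentage of nuclear fragments in each library, with exact 95% intervals. Right, fragments of FTH1 (circles) and FTL (squares) per TFRC fragment on a log axis, with 95% counting intervals. The share is highest in HT-29 with SCS, at 2.64%, and the ratios go up with SCS in HT-29 and down in NCM460. No GC trend is subtracted in either panel.

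SLC40A1, the exporter, was read in HT-29 only. It held 93 fragments in the HT-29 control and 50 with SCS, and 0 in each NCM460 library, which allows up to 5.91 and 4.83 CPM of nuclear fragments there. The log2 fold change in HT-29 was -1.08 (-1.65 to -0.62), or 2.12-fold lower with SCS. SLC40A1 was therefore lower in the same library in which the ferritin chains, whose messengers also carry a 5′ UTR element, were higher. Against the floor of 3 fragments per library, SLC40A1 was at least 11.8-fold higher in HT-29 than in NCM460 without SCS and at least 7.5-fold higher with it. These folds leave out the counting error of the HT-29 count, and the lower ends of the counting intervals were 3.23 and 2.56 on the log2 scale, or 2.26 and 2.36 with the GC trend subtracted.

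SLC11A2, the endosomal and apical transporter, did not differ beyond its counting error with SCS. It held 66 and 61 fragments in HT-29 and 15 and 26 in NCM460. The log2 fold changes were -0.33 (-0.87 to 0.18) and 0.30 (-0.65 to 1.34). The NCM460 value changed sign when the GC trend was subtracted, to -0.50 (-1.45 to 0.54). The interval in NCM460 is wide, and a difference inside it was not detectable at this depth.

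Of the regulatory proteins, neither was called in HT-29 on TMM-scaled CPM. ACO1 held 33 and 38 fragments in HT-29, for a log2 fold change of -0.03 (-0.74 to 0.69), and 22 and 45 in NCM460, with 0.54 (-0.21 to 1.37). The ACO1 value in NCM460 was 0.09 (-0.66 to 0.91) with the GC trend subtracted. IREB2 held 126 and 130 fragments in HT-29, with -0.18 (-0.55 to 0.18), and by FPKM its value there was -0.69, which was called lower. In NCM460 it held 11 fragments in the control and 34 with SCS, with 1.09 (0.14 to 2.28), which was called higher. IREB2 has the GC-poorest transcript of the set, at 38.3%, and its NCM460 value changed sign when the GC trend was subtracted, to -0.15 (-1.10 to 1.04), and by FPKM, to -0.45.

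NCOA4, the ferritin receptor of the lysosomal route, was higher with SCS in both lines, by less than 1.5-fold in HT-29. It held 137 and 227 fragments in HT-29, for a log2 fold change of 0.49 (0.18 to 0.81), and 11 and 60 in NCM460, for 1.88 (1.03 to 3.05). It was the only gene of the set still called in NCM460 once the GC trend was subtracted, at 1.10 (0.25 to 2.27). The ferritin messengers changed more than NCOA4 in HT-29, where FTH1 fragments per NCOA4 fragment were 1.99-fold higher with SCS (1.59 to 2.47). In NCM460 the same ratio went down, to 0.227-fold (0.107 to 0.439), with no GC trend subtracted.

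Counted over the set, 2 genes were called higher with SCS in HT-29 (FTH1 and FTL) and 2 lower (TFRC and SLC40A1), where called means a fold of over 1.5 with an interval that excludes 0. Of the 12168 loci compared in HT-29, 16.8% were called higher and 14.8% lower. In NCM460, 3 of the 7 genes with fragments were called higher (TFRC, IREB2 and NCOA4) and 0 lower, beside 15.4% and 13.8% of 12657 loci. Since these contrasts were known when the genes were chosen, nothing is read from the shares.

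**Figure D3:**
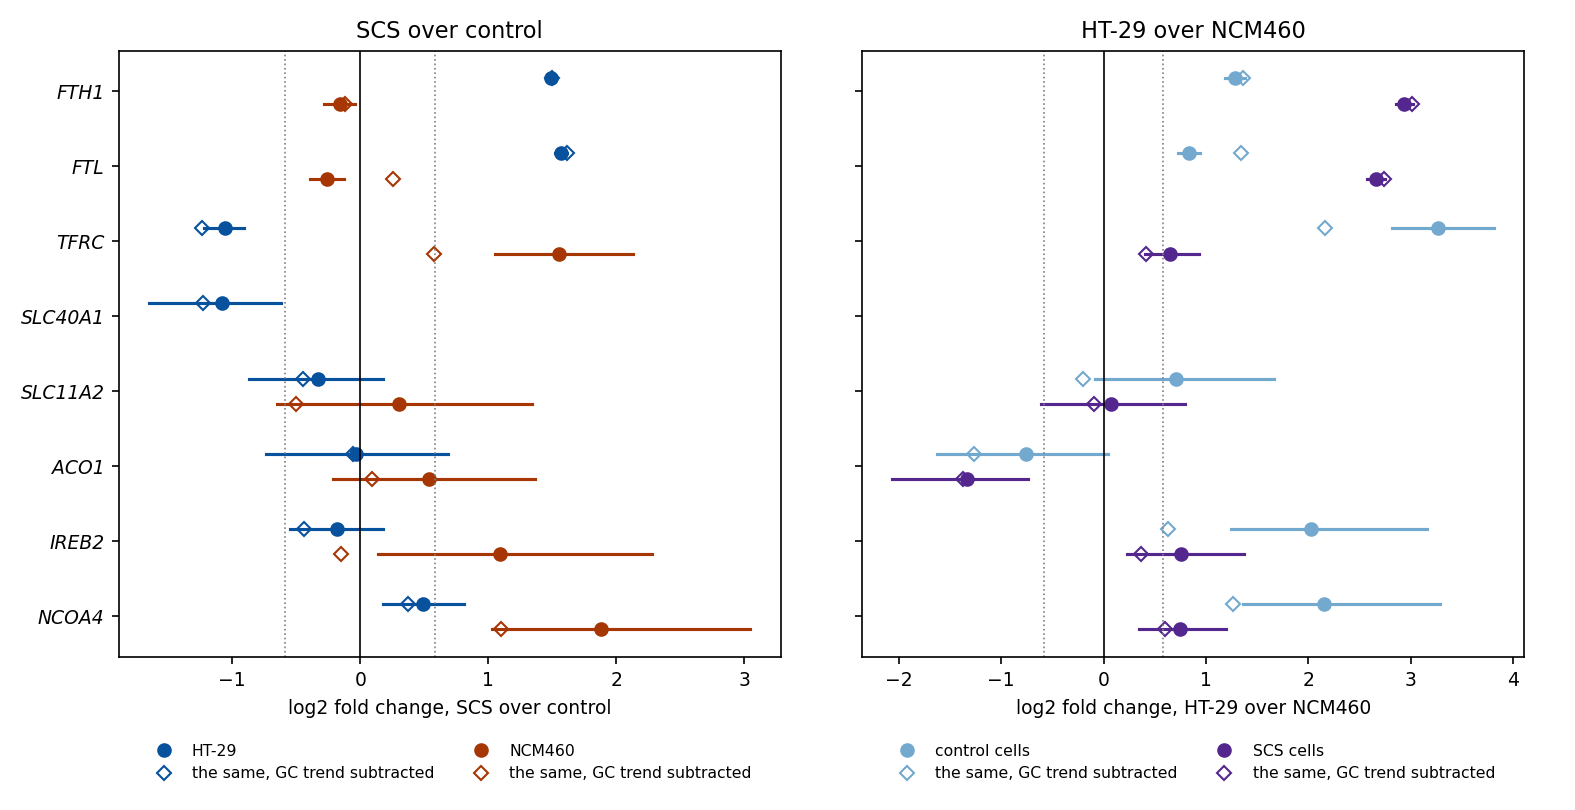
Left, log2 fold change of SCS over control in HT-29 (blue) and NCM460 (brown). Right, log2 fold change of HT-29 over NCM460 in control cells (light blue) and SCS cells (purple). Filled points are the values on TMM-scaled CPM with bars for the 95% counting interval, open diamonds are the values with the GC trend subtracted, and dotted lines mark 1.5-fold. SLC40A1 has no point where NCM460 enters, since it is at 0 there. The ferritin chains stand at 1.49 and 1.57 in HT-29 and near 0 in NCM460, and the diamonds of TFRC and IREB2 lie left of their NCM460 intervals.

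The difference of the SCS fold changes between the lines was taken from all 4 fragment counts of a gene. HT-29 minus NCM460, on the log2 scale, it was 1.65 (1.52 to 1.78) for FTH1, 1.83 (1.69 to 1.97) for FTL and -2.63 (-3.22 to -2.08) for TFRC. These 3 intervals also excluded 0 with the GC trend subtracted, at 1.62, 1.37 and -1.85. For IREB2 and NCOA4 the differences were -1.34 (-2.53 to -0.25) and -1.47 (-2.60 to -0.47), and their intervals included 0 with the trend subtracted. For SLC11A2 and ACO1 the differences were -0.66 (-1.82 to 0.46) and -0.58 (-1.67 to 0.49).

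Between the lines without SCS, most of the set was higher in HT-29. The log2 fold change of HT-29 over NCM460 was 1.28 (1.19 to 1.38) for FTH1, 0.83 (0.73 to 0.94) for FTL and 3.26 (2.82 to 3.81) for TFRC. IREB2 stood at 2.03 (1.24 to 3.16) and NCOA4 at 2.15 (1.36 to 3.28). With SLC40A1, 6 of the 8 genes were called higher in HT-29 and 0 lower, beside 25.3% and 23.1% of 12691 loci. SLC11A2, at 0.71 (-0.08 to 1.66), and ACO1, at -0.76 (-1.63 to 0.04), were not called. The mitochondrial shares of these libraries were 35.8% and 62.3%, and the media the paper describes for the lines differed in serum. Expression in this comparison also went with GC content (rho -0.50), and with the trend subtracted TFRC stood at 2.16 (1.72 to 2.70), NCOA4 at 1.26 (0.47 to 2.39) and FTL at 1.34 (1.24 to 1.45). IREB2 was then no longer called, at 0.63 (-0.17 to 1.76), while ACO1 was called lower in HT-29, at -1.26 (-2.13 to -0.46). The FTH1 value ran from 0.57 by FPKM, where it was not called, to 2.38 by total fragments.

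With SCS, the lines stood further apart in ferritin and closer in TFRC. FTH1 was 2.93 (2.85 to 3.02) and FTL 2.66 (2.57 to 2.75) higher in HT-29 on the log2 scale, or 7.63-fold and 6.33-fold. TFRC was 0.65 (0.40 to 0.93), IREB2 0.76 (0.23 to 1.37) and NCOA4 0.75 (0.35 to 1.20). ACO1, the aconitase form of the regulators, was lower in HT-29 at -1.33 (-2.06 to -0.74). In these libraries 6 of the 8 genes were called higher in HT-29 and 1 lower, beside 24.2% and 22.4% of 13050 loci. TFRC and IREB2 lost their call with the GC trend subtracted, at 0.41 and 0.37, and by FPKM both had the opposite sign, -0.62 and -0.08.

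The order of the 8 genes by FPKM was led in each library by FTH1 and FTL, followed by TFRC. TFRC stood at 91.2 and 34.2 FPKM in HT-29 and at 23.8 and 52.3 in NCM460. The other 5 genes stood at or below 18.9 FPKM. In HT-29 with SCS, NCOA4 was next at 18.9, then IREB2 at 7.79, SLC11A2 at 7.78, SLC40A1 at 4.73 and ACO1 at 2.48, and IREB2 and SLC11A2 cannot be told apart there. In NCM460 with SCS the order after TFRC was NCOA4 at 14.3, SLC11A2 at 13.2, ACO1 at 9.62 and IREB2 at 7.89, on 26 to 60 fragments each.

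The genes most like a member over the 4 libraries were sought among 858 loci of at least 100 CPM on average, by the Euclidean distance of their centred log2 CPM. For FTH1 they were SQSTM1, the autophagy adaptor p62, at a distance of 0.35, FTL at 0.37, a locus shared by CHFR, GOLGA3 and ZNF605 at 0.48, SCD, the stearoyl-CoA desaturase, at 0.51, and SPTBN1, a spectrin, at 0.63. SQSTM1 held 561 fragments in the HT-29 control and 2307 with SCS, and 89 and 96 in NCM460. For FTL, FTH1 was nearest at 0.37, followed by the CHFR locus at 0.51, ACSS2, the cytosolic acetyl-CoA synthetase, at 0.52, HYOU1, a chaperone of the endoplasmic reticulum, at 0.56, and WARS, a tryptophanyl-tRNA synthetase, at 0.60. For TFRC they were ITGA6, an integrin, at 0.38, EML4 at 0.42, the RAD21 locus at 0.66, YWHAB at 0.67 and TMEM123 at 0.70. ITGA6 held 441 and 297 fragments in HT-29 and 20 and 61 in NCM460, with the same order of libraries as TFRC. With 4 libraries, such likeness describes these samples only.

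The other genes of iron metabolism were given by 6 lists of 90 genes in all, of which 8, among them hepcidin (HAMP), transferrin (TF) and mitochondrial ferritin (FTMT), had no fragment in any library. In HT-29, 74 were compared, and 12 were called higher and 10 lower with SCS, beside 16.8% and 14.8% of all loci. Their median log2 fold change was 0.01, and that of all loci was 0.07. In NCM460, 77 were compared, with 10 called higher and 8 lower, and a median of 0.04 beside 0.03 for all loci. These counts stand beside 15.4% and 13.8% of all loci in NCM460. With the GC trend subtracted the NCM460 counts were 4 and 5, beside 5.81% and 6.22% of 12555 loci. The lists below are read against the same shares of all loci.

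Among the 10 genes of import and reduction compared in HT-29, 4 were called higher and 1 lower, beside 16.8% and 14.8% of all loci. LCN2, lipocalin 2, which binds siderophores and their iron, held 65 fragments in the control and 694 with SCS, a log2 fold change of 3.13 (2.82 to 3.57). The metalloreductases STEAP1 and STEAP2 held 7 and 29, and 46 and 170 fragments, with 1.51 (0.60 to 3.25) and 1.60 (1.18 to 2.16). The endocytic receptor LRP1, which also takes up heme bound to hemopexin, stood at 0.88 (0.62 to 1.17). SLC39A8, a zinc and iron transporter counted together with another gene, held 18 and 8 fragments, with -1.13 (-2.81 to -0.13). STEAP3, which reduces iron in the endosome, held 22 and 13 fragments, with -0.85 (-2.10 to 0.06), and SLC39A14, another zinc and iron transporter, held 73 and 122, with 0.49 (0.08 to 0.95), and neither was called. The duodenal reductase CYBRD1 held 0 and 2 fragments.

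In NCM460, 12 genes of import were compared, and 1 was called higher and 3 lower, beside 15.4% and 13.8% of all loci. STEAP1 held 0 and 9 fragments, 2.16-fold higher with SCS against the floor of 3 fragments. This fold leaves out the counting error of the 9 fragments. The lower end of the STEAP1 counting interval was 0.51 on the log2 scale, or -0.35 with the GC trend subtracted. STEAP3 held 48 and 30 fragments, with -1.12 (-1.86 to -0.46), LRP1 held 21 and 11, with -1.30 (-2.61 to -0.29), and SLC46A1, a carrier of heme and folate, held 18 and 11, with -1.09 (-2.41 to -0.02). With the GC trend subtracted 0 of the 12 were called, beside 5.81% higher and 6.22% lower of all loci. SLC39A8 was the highest gene of at least 5 CPM, at 0.72 (-0.30 to 1.93), CYBRD1 held 6 and 9 fragments, and SLC39A14 stood at 0.31 (-0.22 to 0.86).

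The export and hormone list had 4 genes compared in HT-29 and 5 in NCM460. BMPR1A, a receptor of the pathway that sets hepcidin, was called lower in HT-29, with 45 and 29 fragments and -0.80 (-1.59 to -0.16), and stood at 0.66 (-0.36 to 1.88) in NCM460. FURIN, the protease that processes prohepcidin, stood at 0.03 (-0.31 to 0.38) in HT-29 and -0.54 (-1.01 to -0.08) in NCM460. Both changed sign in NCM460 with the GC trend subtracted, BMPR1A to -0.39 (-1.42 to 0.83) and FURIN to 0.15 (-0.33 to 0.61). HEPH, the ferroxidase that works with ferroportin, held 1 and 0 fragments in HT-29 and 7 and 4 in NCM460. None of the 5 was called in NCM460.

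The chaperones PCBP1 and PCBP2, which deliver iron to ferritin, were not called in either line. PCBP1 stood at -0.32 (-0.53 to -0.11) in HT-29 and -0.45 (-0.76 to -0.15) in NCM460, and PCBP2, whose locus is shared with PRR13 and others, at 0.02 (-0.12 to 0.16) and -0.47 (-0.67 to -0.27). With the GC trend subtracted, PCBP2 was called lower in NCM460, at -0.61, while PCBP1 stood at 0.0 (-0.30 to 0.31). PCBP4, counted together with ABHD14B, was called higher in HT-29, at 0.69 (0.06 to 1.45), and stood at -0.53 (-1.04 to -0.03) in NCM460, or 0.11 without the GC trend. HERC2, a ubiquitin ligase reported to turn over NCOA4, stood at -0.32 in both lines, and at 0.01 in NCM460 without the GC trend. FBXL5, the iron sensor that targets IREB2 for degradation, held 30 and 34 fragments in HT-29, with -0.05 (-0.80 to 0.71). In NCM460 FBXL5 held 2 and 18 fragments, with 2.22 (0.63 to 5.85). Once the GC trend was taken off, it stood at 1.15 (-0.44 to 4.78), no call because its interval included 0.

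No other gene of the list of IRE-bearing messengers was called in either line, of 6 compared in HT-29 and 5 in NCM460. EPAS1, the hypoxia factor HIF-2α, held 65 and 100 fragments in HT-29, with 0.38 (-0.08 to 0.86), and 34 and 44 in NCM460, with -0.10 (-0.78 to 0.59). SLC4A1AP held 5 and 19 fragments in NCM460, with 1.29 (-0.02 to 3.23). With the GC trend subtracted, PFN2, at a locus shared with ANKUB1, was called lower in NCM460, at -0.85.

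Of the 28 genes of mitochondrial iron and iron-sulfur cluster assembly, 3 were called higher and 4 lower in HT-29, beside 16.8% and 14.8% of all loci. ISCU, the scaffold on which clusters are built, held 55 and 135 fragments, with 1.03 (0.60 to 1.54), and its chaperone HSPA9 held 459 and 885, with 0.71 (0.55 to 0.88). CIAO2A, a late-acting factor reported to serve the cluster of ACO1, held 51 and 19 fragments, with -1.51 (-2.50 to -0.87). In NCM460, 5 of the 28 were called higher and 3 lower, beside 15.4% and 13.8% of all loci, and 3 and 1 with the GC trend subtracted. The called genes included CIAO2A at 4 and 25 fragments, 1.93 (0.64 to 4.15), BOLA3 at 3 and 20, 1.95 (0.51 to 4.66), and FDX2, at a locus shared with RAVER1, at 142 and 81, -1.27 (-1.70 to -0.88). CIAO2A was thus lower with SCS in HT-29 and higher in NCM460. Without the GC trend the NCM460 value of CIAO2A was 0.91 (-0.38 to 3.14), no call because its interval included 0. FDX2 also lost its call without the trend, at -0.58. HSPA9 was called higher in NCM460 too, at 86 and 202 fragments, 0.75 (0.39 to 1.14), but stood at 0.02 without the trend.

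Of the 19 genes of heme metabolism, 4 were called higher and 4 lower in HT-29, beside 16.8% and 14.8% of all loci. HMOX1, the heme oxygenase that frees iron from heme, held 8 and 38 fragments, with 1.72 (0.89 to 3.33), and BLVRB, a biliverdin reductase, held 21 and 92, with 1.78 (1.20 to 2.66). In NCM460 HMOX1 held 11 and 10 fragments, with -0.55 (-2.0 to 0.76), or 0.05 without the GC trend. ABCB10, a mitochondrial transporter tied to heme synthesis, held 22 and 8 fragments in HT-29, with -1.39 (-3.07 to -0.47), and ABCG2, which exports porphyrins, held 42 and 23, with -1.01 (-1.90 to -0.33). In NCM460, 3 were called higher and 2 lower, beside 15.4% and 13.8% of all loci, and 1 and 2 with the GC trend subtracted. Among them were BLVRA, the other biliverdin reductase, at 4 and 18 fragments, 1.48 (0.09 to 3.72), and ALAS1, which makes the first precursor of heme, at 53 and 37, -0.97 (-1.64 to -0.36). ALAS1 stood at 0.43 (-0.05 to 0.95) in HT-29.

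**Figure D4:**
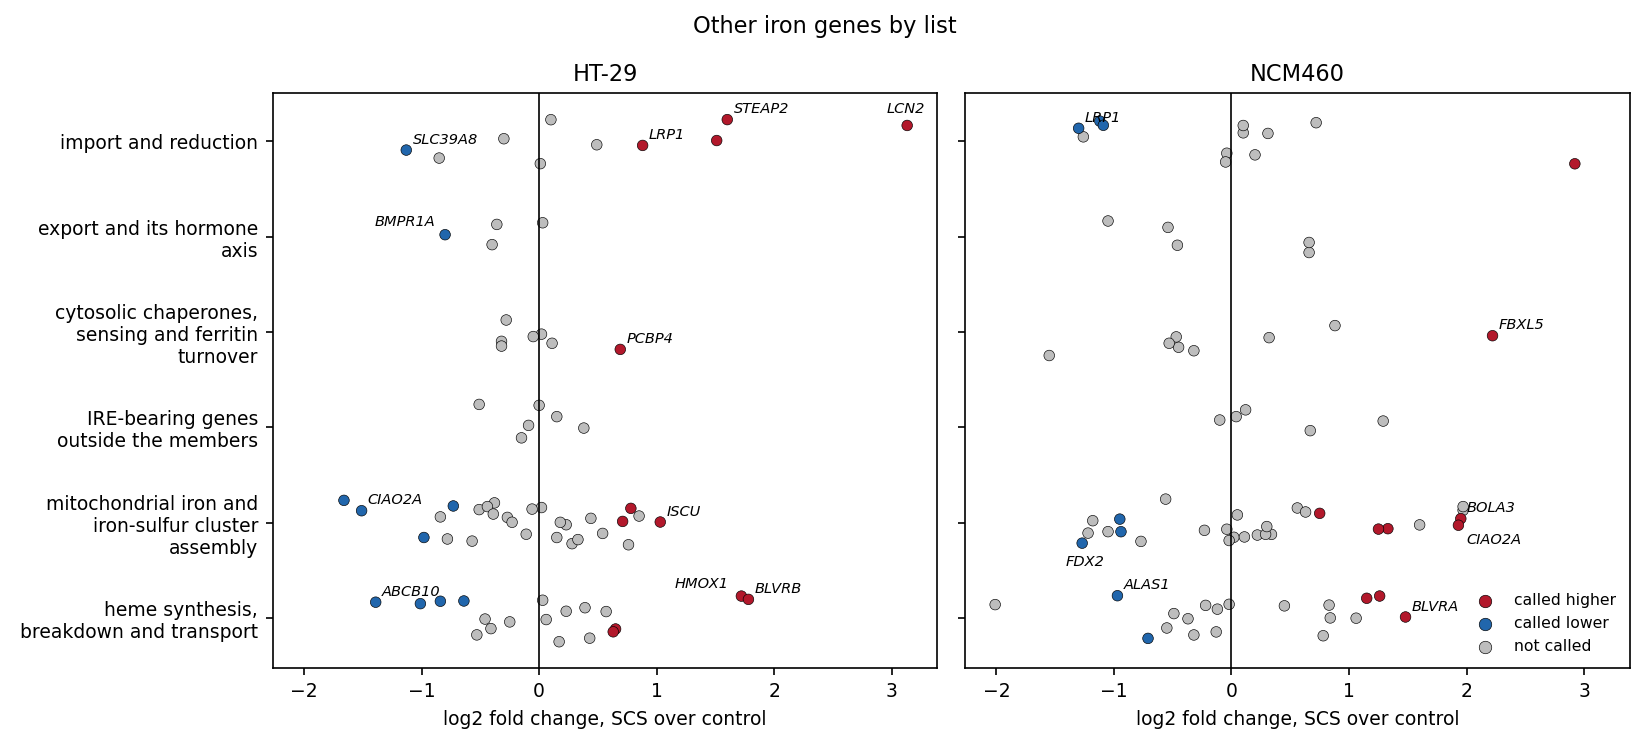
Log2 fold change of SCS over control for each gene of the 6 lists with a mean of at least 1 CPM, in HT-29 (74 genes) and NCM460 (77 genes), 1 point per gene with a vertical offset for legibility. Red points were called higher, blue points lower and grey points neither, and the leading called genes of each list are named. Points of genes with 3 fragments or fewer in 1 library are fitted values and no bounds. In HT-29 LCN2 stands furthest right, at 3.13, and in both lines the called points lie on both sides of 0.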

How the data were processed

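RNA-seq of 4 libraries was read from 1 table, with a count and an FPKM column per library. The count values the authors deposited are a signal, whole fragments divided by a size factor of the library, so fragments were recovered by dividing by the worth of 1 fragment (0.577 to 2.04), which gave whole numbers (within 0.05) for 99.8% to 99.9% of values. The FPKM values were deposited by the authors as fragments scaled by transcript length and library size. The labels name cutadapt 1.9.1, Bowtie2, HTSeq 0.6.1 and hg19, and the paper names Cuffdiff and replicates, but the table's coordinates are those of GRCh38 (of 58998 gene IDs, 53464 are in GENCODE 29, 94.4% of them with the same start and end), and 1 library per condition was used here. The paper gives Cuffdiff for differential expression, and the roles of the tools in the labels are not given in the sources used here. The design had assumed whole counts.

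Rows with no gene name (26, up to 0.0942% of a library) were dropped, and adjacent rows with identical values were merged, which gave 18650 loci, 1812 of several genes. No member shares a locus. Fragments were scaled by edgeR 4.0.16 TMM factors over all 4 libraries (0.578 to 1.50), and log2 fold changes were taken with a prior count of 2 at a mean of at least 1 CPM. The edgeR quasi-likelihood and DESeq2 tests could not be fitted with 1 library per group, so no p-value is given. Each interval is the exact Clopper-Pearson one for how a locus's fragments divide over the compared libraries, and for differences between lines the conditional interval of the odds ratio (SciPy 1.17.1). The GC trend is a lowess (statsmodels 0.14.6, span 0.3) on the longest protein-coding transcript of GENCODE 29. Of the other iron genes, 78 were matched by symbol and 4 by gene ID or older symbol.

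The members and lists were chosen with earlier results of these data known. Named were all members, the highest and lowest gene of each list per line at 5 CPM or more, a fixed set (HMOX1, PCBP1, PCBP2, FBXL5, STEAP3, CYBRD1, SLC39A14, HEPH, EPAS1 and 1 gene that is not reported here) and the 5 genes most like FTH1, FTL and TFRC. STEAP1, STEAP2, SLC46A1, HSPA9, ABCG2 and PFN2 were added after their values were seen, as were CIAO2A in NCM460, LRP1 and ALAS1 in HT-29. The alternatives were DESeq2 1.42.0 size factors, nuclear or total fragments, the authors' scaling, FPKM, a prior count of 0.5, no filter, a mean of at least 5 CPM, a GC or length trend subtracted, thinning to equal nuclear depth, a fold of 2 and pseudogene fragments added.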

Additional observations from a re-analysis of the deposited data

Results flagged for a closer look

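TFRC was singled out because it was called in opposite directions with SCS in the lines, at a log2 fold change of -1.06 in HT-29 and 1.55 in NCM460. The difference between the lines was -2.63, with a 95% interval of -3.22 to -2.08 that covers counting error only, and it was not tested against replicate error, since each condition has 1 library. The NCM460 control held 37 TFRC fragments. With the GC trend subtracted the values were -1.24 and 0.58, and the second was no longer called.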

How the results depend on the processing

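No paired analysis was possible because each condition has 1 library, and no library could be left out. Against TMM, total fragments moved the median of all loci by 0.25 in HT-29, 0.54 in NCM460, 0.94 between control lines and 0.59 between SCS lines, nuclear fragments by -0.14, 0.16 and 0.28 in the first 3, and the authors' scaling by -0.14 in NCM460 and -0.12 between control lines. Of the counts of calls and their alternatives, 132 stayed within 1.5 times and 28 did not. FTH1 and FTL kept a log2 fold change of 1.17 to 1.76 and 1.42 to 1.84 in HT-29, TFRC -1.41 to -0.78 and SLC40A1 -1.41 to -0.82 there, and NCOA4 0.14 to 0.76 in HT-29, called there by total fragments, and 0.94 to 2.48 in NCM460. TFRC ranged from 0.58 to 2.21 in NCM460.

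In HT-29, 3 members were called lower by FPKM, IREB2 among them. Members called higher with SCS in NCM460 numbered 5 by total fragments and 1 with the GC trend subtracted, and 1 (FTH1) was called lower by FPKM. IREB2 in NCM460 reversed to -0.45 by FPKM and -0.15 with the GC trend subtracted. Between control lines 1 member (ACO1) was called lower in HT-29 with DESeq2 size factors, the authors' scaling, FPKM, and the GC or length trend subtracted, and 3 were called higher by FPKM. Between SCS lines, FPKM gave 2 higher and 3 lower, with TFRC reversed to -0.62 and IREB2 to -0.08 (SLC40A1, listed at 0 in NCM460, had no FPKM ratio), and a fold of 2 gave 3 higher. The difference between lines excluded 0 for 3 members with the GC trend subtracted and by FPKM, against 5. The other iron genes called lower in HT-29 numbered 4 by total fragments, 17 by FPKM, 4 after thinning and 5 at a fold of 2, which left 6 higher. In NCM460 those called higher numbered 27 by total fragments, 5 by FPKM and 4 with the GC trend subtracted, and those called lower 0, 19 and 5, with 14 by the authors' scaling, 5 after thinning and 4 at a fold of 2. Apart from the larger fold and the thinned depth, the cause was not tested. No share of all loci is given here for the difference between lines, nor under the alternatives except the GC trend within NCM460. Nothing is therefore read from these counts. Depth limits the NCM460 libraries most, where 3 fragments are 4.83 and 5.91 CPM of nuclear fragments.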
